A study of Arabidopsis thaliana with 24 samples.

Results

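After 30 min of chitin, seedlings of the *Arabidopsis thaliana* mutant *atl9* were compared with seedlings of the wild type Col-0 that had received the same treatment. The mutant is named rre1-1 in the sample labels and is a T-DNA insertion line in the Col-0 background (SALK_066755), so 1 insertion allele stands for the loss of the gene *ATL9*. Both lines were grown for 14 days in liquid Murashige and Skoog medium with sugar under constant light, and acid-hydrolysed crab shell chitin was then added to 100 mg/L. Each line had 4 flasks of pooled whole seedlings, labelled as biological replicates, and each gave 1 Affymetrix ATH1 array. These 8 arrays, of 24 in the series, were chosen by their titles. The other arrays used here are the 4 of each line that received water for 30 min (mock), and the remaining arrays carry the mutant rre2. One label field calls the chitin-treated Col-0 samples untreated, and their titles and source names, which say chitin, were followed. Signals were divided by the median of their array, so that a value of 1 is the array median, and the 16530 probe sets of highest mean signal, of 22746 that are not controls, were compared on the log2 scale.

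Chitin is a polymer of the fungal cell wall and of insect shells. Plant cells perceive its fragments through receptor kinases with LysM domains, and within minutes calcium enters the cytosol, reactive oxygen is produced, kinase cascades start and transcription of many defence genes changes. *ATL9* encodes a membrane-bound RING-type E3 ubiquitin ligase of the ATL family, proteins that attach ubiquitin to substrates and of which several respond quickly to elicitors. Jasmonate, a lipid-derived hormone of wounding and defence, acts in part through MYC transcription factors, and growing seedlings at the same time build cell wall on a scaffold of microtubules.

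The medians by which the arrays were divided were 159 ± 7.50 deposited signal units (SD, n = 4) in *atl9* and 153 ± 10.5 (SD, n = 4) in Col-0 (p = 0.43, two-sided exact permutation test). The spread of the log2 signals of an array, as the interquartile range, was 3.87 ± 0.137 in *atl9* and 4.04 ± 0.0874 in Col-0 (SD, n = 4 each, p = 0.086, two-sided exact permutation test). Pairs of arrays correlated at 0.948 to 0.975 within *atl9*, at 0.949 to 0.982 within Col-0 and at 0.922 to 0.957 between the lines. Of the chitin arrays, 2 of each line were scanned on day 4 and 1 of each on day 3, whereas the others, of Col-0 on day 1 and of *atl9* on day 2, had no partner. The ratio of 3' to 5' signal of actin, a sign of RNA quality, was 11.9 to 15.8 across the wild-type arrays and 14 to 17.5 across those of *atl9*, and the GAPDH ratio was 0.661 to 0.855 and 0.706 to 1.09. Markers of root tissue (6 tested, among them the root beta-glucosidase PYK10 and the root hair expansin EXPA7) had summed signals of 96.9 to 118 array medians in Col-0 and 104 to 117 in *atl9*. Those of shoot tissue (6 tested, among them LHCB4.1, an antenna protein of photosystem II) summed to 97.5 to 120.3 and 52.3 to 98.8. No member of either list passed the test, and the part of these differences in the results was not tested. In pooled seedlings, fewer cells of a type and less RNA per cell cannot be told apart. The probe set of *ATL9* itself is not analysed here.

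Between the lines after chitin, 2017 of 16530 probe sets (12.2%) passed an adjusted p of 0.05 in limma, 852 higher (5.15%) and 1165 lower (7.05%) in *atl9*, while the median log2 difference of all probe sets was -0.02. The median difference was 0.80 among the higher and -0.67 among the lower, and 283 and 245 of them (3.19% of all tested) differed by at least 2-fold. The signals of the 4 arrays of each line did not overlap for 2909 probe sets (17.6%) in all (7.07% higher and 10.5% lower), and for 678 of the higher and 1004 of the lower probe sets that passed. In mock, the same comparison gave 1 probe set (0.00605%), with 1127 at an unadjusted p under 0.05. That probe set, 267084_at, is not listed in the annotation used here. Its signals were 13.6, 19.9, 15.2 and 11.7 in Col-0 and 1.07, 1.31, 1.99 and 1.37 in *atl9* in mock, without overlap and apart by -3.41 on the log2 scale. After chitin they were 18.9, 12.2, 11.7 and 11.4 in Col-0 and 4.85, 13.1, 4.16 and 6.04 in *atl9*, where replicate 2 reached the level of Col-0, and the difference was -1.07 (SE 0.31, adjusted p = 0.034), with an interaction of 2.34 (adjusted p = 0.033). The difference after chitin did not pass with scan day as a block (adjusted p = 0.075) or without any 1 of the 4 Col-0 chitin arrays or *atl9* chitin replicate 1, 3 or 4 (adjusted p = 0.053 to 0.1). The mock arrays are other arrays than the chitin arrays. In them, 610 of the 852 probe sets (71.6%) were also above Col-0 and 810 of the 1165 (69.5%) also below, while 47.6% of all probe sets were above 0, but the median differences in mock were only 0.15 and -0.11. The chitin responses, which share the chitin arrays with the comparison, are given side by side. The median response of the higher probe sets on the log2 scale was -0.44 in the wild type and 0.21 in *atl9*, whereas the lower probe sets had 0.41 in the wild type and -0.15 in *atl9*. By the deposited instrument settings, the mock arrays of both lines were run on module 1 or 3 and the chitin arrays on module 2 or 4. Treatment and module therefore cannot be told apart in these responses.

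**Figure D1:**
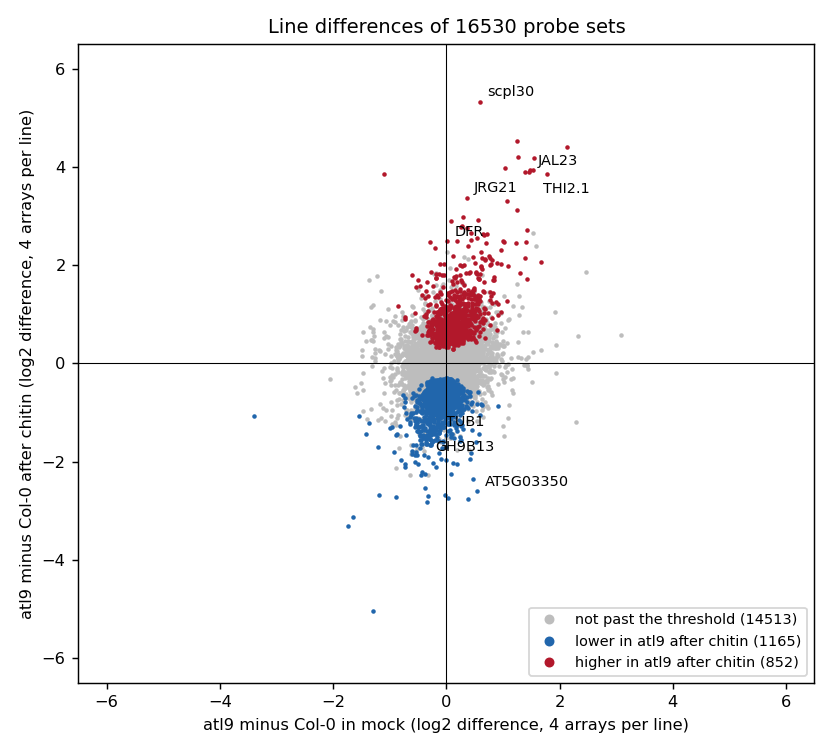
Log2 difference between *atl9* and Col-0 in mock (x axis) and after chitin (y axis) for 16530 probe sets, each from 4 arrays per line. Points that passed the test after chitin reach 5.33 above 0 on the y axis (scpl30). They were selected by that axis, so their spread along it cannot be set against that along the x axis. In mock 1 probe set passed.

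Genes of the jasmonate list were mostly higher in *atl9* after chitin. This list and those below were written with earlier results of these data known, so their counts are not independent evidence. Over all probe sets 5.15% were higher and 7.05% lower. Of 12 tested members of the jasmonate list, 9 passed as higher and none as lower, with a median log2 difference of 1.40 (all probe sets -0.02) and of 0.18 in mock. Among the 9, JAL22, JAL23, JAL33 and JAL34 are jacalin-related lectins. THI2.1, PDF1.2 and PDF1.2b are counted again among the secreted peptides below. The enzymes JMT and OPCL1 did not pass, so the count is not one of jasmonate synthesis. The largest differences of the list were those of JAL23, of THI2.1, a thionin (a small antimicrobial peptide), and of JRG21, a dioxygenase induced by jasmonate. JAL23 had signals of 1.5, 0.663, 0.289 and 0.498 array medians in Col-0 replicates 1 to 4 after chitin and of 9.73, 4.17, 9.84 and 19.4 in those of *atl9*. The lowest *atl9* array was thus above the highest Col-0 array, and the log2 difference was 3.93 (SE 0.54, adjusted p = 0.00067), 15.3-fold. For THI2.1 the signals were 0.298, 0.24, 0.253 and 0.17 in Col-0 and 3.35, 1.13, 4.96 and 8.26 in *atl9*. Again the lines did not overlap, with *atl9* replicate 2 the lowest of its line and replicate 4 the highest for both genes, and the difference was 3.90 (SE 0.58, adjusted p = 0.0011). In mock JAL23 and THI2.1 also had higher means in *atl9*, by 1.48 and 1.39, which did not pass the test.

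The signal of JRG21 was 22.2 ± 12.4 array medians in mock Col-0 and 27.8 ± 14.3 in mock *atl9* (SD, n = 4 each). After chitin it was 11.4, 2.13, 2.02 and 1.75 in Col-0, where replicate 1 stood far above the others, and 35.1, 20.1, 31.6 and 43.9 in *atl9*, all above every Col-0 array, a difference of 3.37 (SE 0.57, adjusted p = 0.0022). PDF1.2, the plant defensin that serves as a common marker of combined jasmonate and ethylene signalling, was far above the array median in both lines. Its signals were 91.4, 30.8, 39.3 and 34.8 in Col-0 and 144, 133, 118 and 173 in *atl9* after chitin, again with Col-0 replicate 1 the highest of its line and no overlap, and the difference was 1.67 (SE 0.28, adjusted p = 0.0025). In mock the lines had 113 ± 31.6 and 124 ± 8.86 (SD, n = 4 each). The near-identical PDF1.2b, whose probe set may share transcripts with PDF1.2, differed by 0.90 (SE 0.27, adjusted p = 0.043, and 0.052 to 0.12 without Col-0 mock replicate 3 or 4 or Col-0 chitin replicate 2, 3 or 4 or *atl9* mock replicate 1 or 4 or *atl9* chitin replicate 1, 2 or 4).

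Lectins were also among the milder members. JAL22 measured 19.2, 10.3, 10.8 and 11.4 in Col-0 and 47, 29.9, 40.5 and 56.3 in *atl9*, without overlap, and differed by 1.76 (SE 0.27, adjusted p = 0.0013). JAL33 differed by 1.13 (SE 0.18, adjusted p = 0.0018) and JAL34 by 0.40 (SE 0.12, adjusted p = 0.035, and 0.071 to 0.1 without Col-0 chitin replicate 2, 3 or 4 or *atl9* chitin replicate 1, 3 or 4). MYC3, one of the transcription factors that JAZ repressors hold back until jasmonate arrives, lay between 3.97 and 4.1 in the 4 Col-0 arrays and between 5.61 and 7.17 in those of *atl9*, a narrow but clean separation of 0.62 (SE 0.11, adjusted p = 0.0038). Its partner MYC4 differed by 0.41 (SE 0.22, adjusted p = 0.24), the jasmonate methyltransferase JMT by 1.70 (SE 0.56, adjusted p = 0.06) and OPCL1, a ligase of jasmonate synthesis, by 0.34 (SE 0.16, adjusted p = 0.17), none of which passed. With scan day as a block 7 of the 12 passed, and the list's median was 0.91 on scan day 4 alone (2 arrays per line and treatment) and 1.47 on the earlier days. Among the arrays of the list, Col-0 replicate 1 was the highest Col-0 array for JAL22, JAL23, JAL33, JRG21, PDF1.2 and THI2.1.

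**Figure D2:**
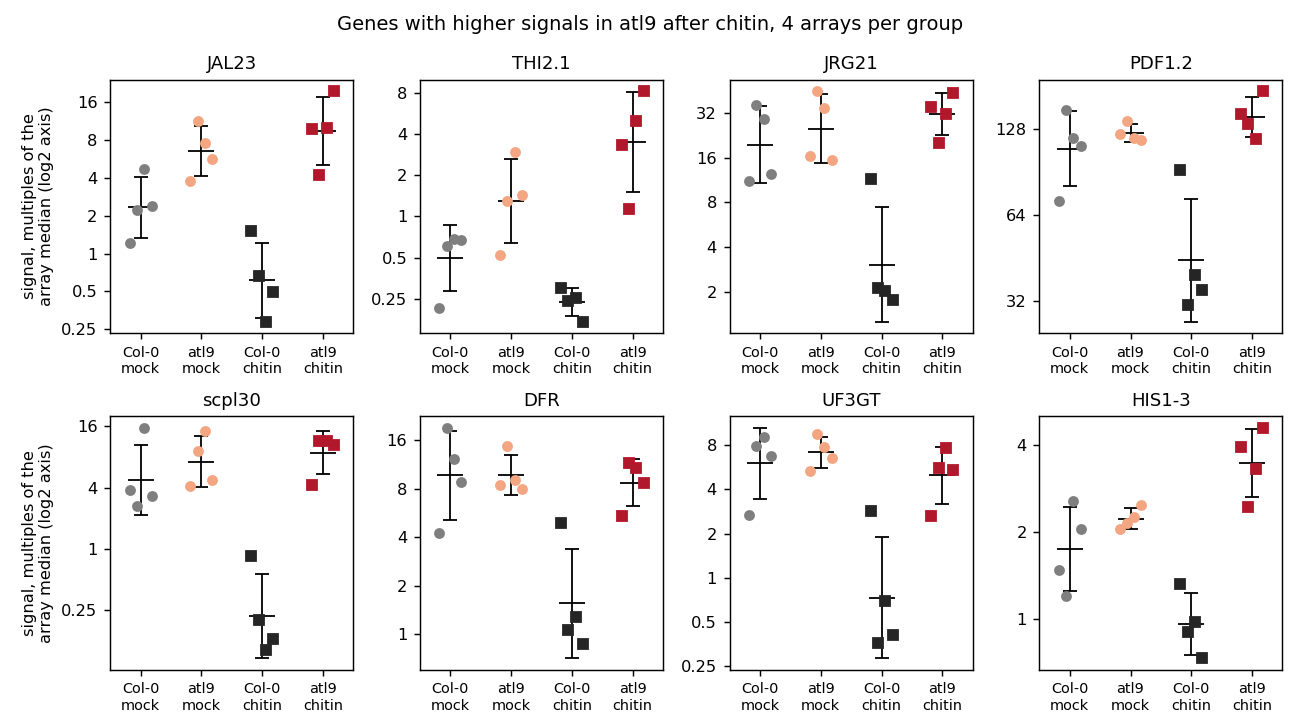
Signals of 8 genes in multiples of the array median (y axes, log2 scale) on each of the 4 arrays of Col-0 and *atl9* in mock (circles) and after chitin (squares), with the mean of the log2 signals ± SD. The chitin arrays of Col-0 lie below those of *atl9* for all 8 genes except UF3GT, where Col-0 replicate 1 (2.84) is above *atl9* replicate 1 (2.65).

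Anthocyanins are red and purple pigments of the flavonoid pathway. Of 6 tested members of the anthocyanin and flavonoid list, 3 were higher in *atl9* and none lower (median 1.67, and 0.03 in mock). DFR, dihydroflavonol reductase and the entry to the anthocyanin branch, measured 4.9, 1.07, 1.28 and 0.87 in Col-0 and 5.42, 11.5, 10.7 and 8.68 in *atl9* after chitin. The replicate numbered 1 was the highest of Col-0 and the lowest of *atl9*, and the gap between those 2 arrays was small (4.90 and 5.42), with a difference of 2.49 (SE 0.50, adjusted p = 0.0064) over all. UF3GT, a glycosyltransferase that decorates anthocyanins, gave 2.84, 0.358, 0.694 and 0.405 in Col-0 and 2.65, 5.6, 7.61 and 5.45 in *atl9*. Here replicate 1 of the lines overlapped, and the difference was 2.77 (SE 0.55, adjusted p = 0.006). AT5MAT, the malonyltransferase that follows, was at 0.434, 0.0461, 0.0541 and 0.139 in Col-0 and at 0.89, 0.83, 0.921 and 0.868 in *atl9*, without overlap and nearly constant in *atl9*. Its difference was 2.99 (SE 0.54, adjusted p = 0.0036) and 1.65 with an offset of 32 added to the deposited values. All 4 of its Col-0 signals were under the array median. In mock, DFR had 11.1 ± 6.24 in Col-0 and 10.1 ± 3.2 in *atl9* (SD, n = 4 each). The other 3 members were not past the threshold. UGT78D2, which glucosylates flavonols and anthocyanidins, differed by 0.84 (SE 0.29, adjusted p = 0.066), UGT78D1, a flavonol rhamnosyltransferase, by 0.29 (SE 0.27, adjusted p = 0.52) and the chalcone isomerase-like protein CHIL by -0.44 (SE 0.28, adjusted p = 0.32).

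The UDP-glycosyltransferases, which attach sugars to hormones, pigments and xenobiotics, had 7 of 42 tested members higher and none lower, with a median of 0.10. This was 16.7% called, against 12.2% of all probe sets, and with scan day as a block 5 were higher. The list's median was -0.02 on scan day 4 and 0.29 on the earlier days. UF3GT is one of the higher ones. UGT73B5, known for its response to pathogens and oxidative stress, measured 4.21, 4.73, 4.35 and 3.68 in Col-0 and 7.42, 7.55, 6.83 and 6.77 in *atl9* after chitin. Every *atl9* array was above every Col-0 array, by 0.75 (SE 0.11, adjusted p = 0.0013), while the mock difference was -0.10, and the difference between treatments passed the test at 0.86 (adjusted p = 0.038). Its neighbour in the family UGT73B4 differed by 0.73 (SE 0.15, adjusted p = 0.0075), UGT73B1 by 1.36 (SE 0.30, adjusted p = 0.0099), UGT71B5 by 1.22 (SE 0.20, adjusted p = 0.0021) and UGT73C7 by 1.67 (SE 0.47, adjusted p = 0.03, and 0.057 to 0.086 without Col-0 chitin replicate 1, 2 or 4 or *atl9* chitin replicate 1 or 4). Probe sets of such close relatives can share transcripts.

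The widest difference of a gene with a name belonged to scpl30, a member of the serine carboxypeptidase-like family. Its chitin signals were 0.859, 0.20, 0.102 and 0.131 in Col-0 and 4.22, 11.5, 11.5 and 10.5 in *atl9*, with replicate 1 the highest of Col-0 and the lowest of *atl9* and a wide gap between the lines. The log2 difference was 5.33 (SE 0.66, adjusted p = 0.0004), or 4.30 with the offset of 32. In mock the gene had 6.29 ± 6.09 in Col-0 and 8.16 ± 4.76 in *atl9* (SD, n = 4 each), and the difference between treatments passed at 4.73 (adjusted p = 0.042). In the list of proteases and their inhibitors it was the only member higher of 27 tested, while scpl25 (-0.66, adjusted p = 0.018, and 0.053 to 0.057 without *atl9* chitin replicate 1 or 3) and scpl40 (-0.86, adjusted p = 0.039, and 0.073 to 0.11 without Col-0 chitin replicate 1 or 4 or *atl9* chitin replicate 1, 3 or 4) were lower. The 11.1% called in that list was near the 12.2% of all probe sets. The study described scpl30 as like a hydroxynitrile lyase and had chosen it on these samples, as it did the 5 loci that follow, so their direction is not independent evidence. Of these, AT1G54020, a myrosinase-associated protein, differed by 3.11 (SE 0.48, adjusted p = 0.0014) and AT3G05950, a germin-like protein, by 2.64 (SE 0.40, adjusted p = 0.0012). AT2G31945, a further locus of that list, differed by 1.25 (SE 0.25, adjusted p = 0.0065). AT4G33150, the bifunctional enzyme that starts lysine breakdown, measured 4.06, 5.35, 3.83 and 4.41 in Col-0 and 12, 8.27, 11.1 and 13.2 in *atl9*, and AT1G14120, a dioxygenase, differed by 1.45 (SE 0.20, adjusted p = 0.0006). For AT4G33150 the lines did not overlap, the difference was 1.33 (SE 0.16, adjusted p = 0.00036), and it differed from that in mock by 1.10 (adjusted p = 0.048).

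Among other named genes, HIS1-3, a linker histone known for its rise under drought and abscisic acid, was 1.32, 0.907, 0.976 and 0.734 in Col-0 and 3.94, 2.43, 3.29 and 4.56 in *atl9*. The lines were apart, by 1.85 (SE 0.24, adjusted p = 0.00048), and HIS1-3 was the single higher member of 8 histone and cell cycle genes, of which PRL, a subunit of the replicative helicase, was lower (-0.67, adjusted p = 0.03, and 0.053 to 0.089 without Col-0 chitin replicate 1, 2 or 4 or *atl9* chitin replicate 1, 3 or 4). PRL did not pass with scan day as a block. COR15A, a chloroplast protein of cold acclimation, was low throughout, with 0.0678, 0.0246, 0.189 and 0.141 in Col-0 and 0.621, 0.332, 0.607 and 0.811 in *atl9*. No array overlapped, and the difference was 2.79 (SE 0.61, adjusted p = 0.0099), or 1.34 with the offset. It was the only higher member of 13 tested for abscisic acid, drought and cold, and AT2G44060, a late embryogenesis abundant protein, was the only lower one (-0.35, adjusted p = 0.039, and 0.063 to 0.096 without Col-0 chitin replicate 2, 3 or 4 or *atl9* chitin replicate 1, 3 or 4). AT2G44060 did not pass with scan day as a block. The 15.4% called in this list was near the 12.2% of all probe sets. BGLU46, a beta-glucosidase thought to release lignin precursors, rose above Col-0 by 1.84 (SE 0.40, adjusted p = 0.01), with 0.467, 2.46, 1.59 and 0.936 in Col-0 and 4.78, 4.16, 4.66 and 3.05 in *atl9*. BGLU45 (1.07, adjusted p = 0.035, and 0.051 to 0.1 without Col-0 chitin replicate 2, 3 or 4 or *atl9* chitin replicate 1, 3 or 4), BGLU24 (1.04, adjusted p = 0.019, and 0.051 to 0.059 without Col-0 chitin replicate 3 or 4 or *atl9* chitin replicate 3) and BGLU28 (0.65) were higher too, and in the same list of 24 glycosyl hydrolases GH9B13, GH9B7 and GH9C2 were lower. GTR1 and GTR2, which import glucosinolates into cells, were the 2 higher of 6 members of the glucosinolate list. The difference of GTR1 was 0.53, adjusted p = 0.029, and 0.051 to 0.078 without Col-0 chitin replicate 2, 3 or 4 or *atl9* chitin replicate 1, 3 or 4. That of GTR2 was 0.60, adjusted p = 0.025, and 0.053 to 0.067 without Col-0 chitin replicate 2 or 4 or *atl9* chitin replicate 2 or 3, and neither passed with scan day as a block.

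Loci with no symbol or description in the annotation are named by their codes only, while 2A6, listed with them here, is a symbol. Those of the largest differences that were higher were AT4G17470 (4.41 (SE 0.72, adjusted p = 0.0019)), AT4G37850 (2.54), AT1G52000 (2.11), AT4G39675 (2.04, adjusted p = 0.048, and 0.052 to 0.12 without Col-0 mock replicate 1 or 4 or Col-0 chitin replicate 1, 2, 3 or 4 or *atl9* mock replicate 4 or *atl9* chitin replicate 1, 2, 3 or 4), AT2G37870 (2.02), AT5G61290 (1.98), AT2G43530 and 2A6 (1.98). AT2G43530 was abundant, with 14.4, 9.65, 7.5 and 8.56 in Col-0 and 38.7, 31, 36.2 and 41.9 in *atl9* after chitin. Its arrays did not overlap between the lines, with a difference of 1.92 (SE 0.20, adjusted p = 0.00012). Of genes above the array median in both lines, AT4G23680 (1.91), AT2G26380 (1.81), AT5G35940 (1.78) and AT5G47950 (1.72) were the next highest, beside BGLU46, JAL22 and PDF1.2 described above. The gene lists were matched mainly by symbol, so a locus named by code can belong to a listed family without being counted there.

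Of 8 tested tubulins and actins, 5 were lower in *atl9*, none was higher, all 8 differences were below 0, and the median was -0.69, with -0.15 in mock. All 5 that passed encode tubulins, the subunits of the microtubules along which cellulose is laid down. TUB1, a beta-tubulin strongly expressed in roots, measured 6.0, 7.56, 6.74 and 6.92 in Col-0 and 2.37, 3.17, 2.58 and 2.38 in *atl9* after chitin. The highest *atl9* array was below the lowest Col-0 array by more than the range of either line, and the difference was -1.38 (SE 0.14, adjusted p = 8.6e-05), 2.6-fold. In mock TUB1 was 3.01 ± 0.538 in Col-0 and 2.72 ± 0.159 in *atl9* (SD, n = 4 each), and the difference between treatments was -1.25 (adjusted p = 0.019). TUB5 was at 14.4, 12.4, 14.9 and 13.6 in Col-0 and at 5.83, 8.21, 6.72 and 6.45 in *atl9*, also apart, with -1.03 (SE 0.13, adjusted p = 0.00043). TUB6 (-0.84 (SE 0.15, adjusted p = 0.0027)), which is often used as a reference gene, TUB7 (-0.67 (SE 0.14, adjusted p = 0.008)) and the alpha-tubulin TUA6 (-0.71 (SE 0.15, adjusted p = 0.007)) followed. The other 2 genes of the reference list did not pass (GAPC2 -0.23 (SE 0.10, adjusted p = 0.15) and PEX4 0.13 (SE 0.14, adjusted p = 0.6)). All 5 tubulin calls held with scan day as a block, and the list's median was -0.61 on scan day 4 and -0.77 on the earlier days.

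**Figure D3:**
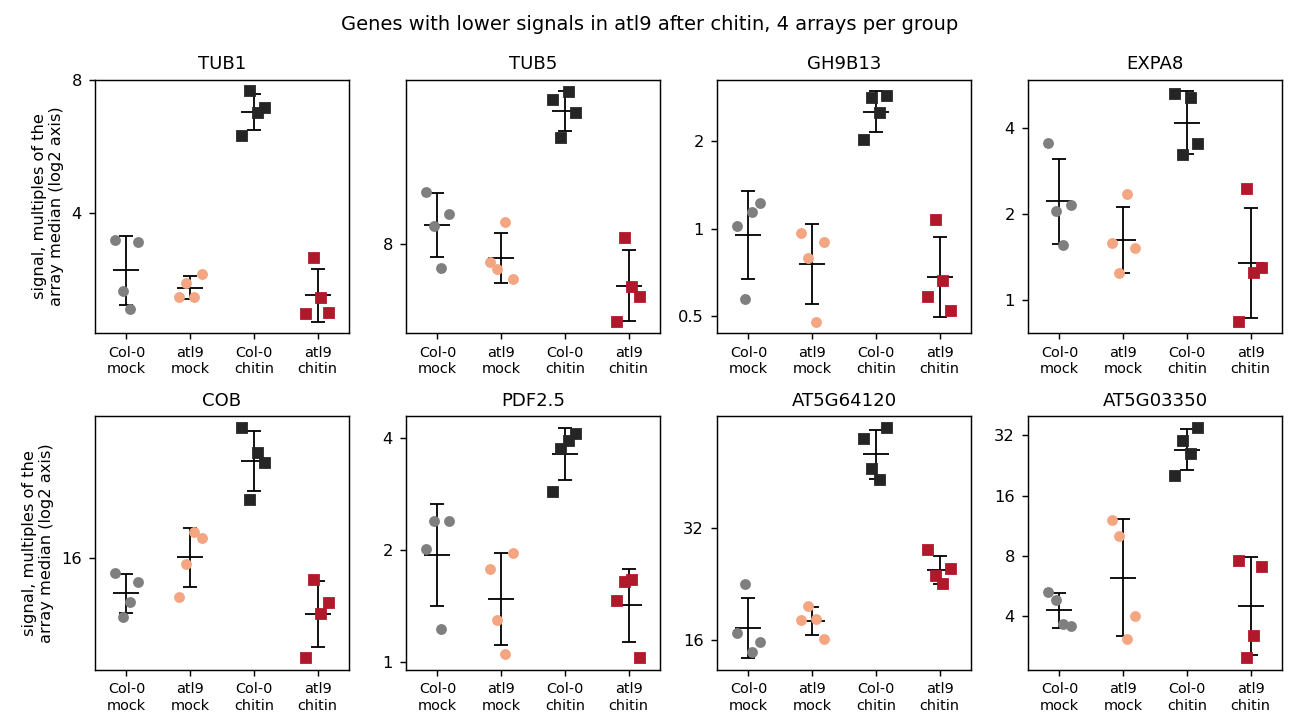
Signals of 8 genes in multiples of the array median (y axes, log2 scale) on each of the 4 arrays of Col-0 and *atl9* in mock (circles) and after chitin (squares), with the mean of the log2 signals ± SD. The chitin arrays of Col-0 lie above those of *atl9* for all 8 genes, and the widest gap is that of AT5G03350 (-2.60 on the log2 scale).

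Of 19 tested members of the list of cellulose and hemicellulose synthesis, 6 were lower in *atl9* and none higher, with a median of -0.47 (0.08 in mock). Among the 6, GH9B13, GH9B7 and GH9C2 are endoglucanases rather than synthases, and are also counted in the list of glycosyl hydrolases. GH9B13, an endoglucanase of the family that trims cellulose, measured 2.02, 2.83, 2.5 and 2.87 in Col-0 and 0.581, 1.07, 0.66 and 0.521 in *atl9*. The arrays did not overlap, and the difference of -1.90 (SE 0.28, adjusted p = 0.001) was the largest of a lower gene with a symbol. COB, the COBRA protein that guides the orientation of cellulose microfibrils, was 22.5, 18.6, 21.1 and 20.5 in Col-0 and 12.3, 15.1, 13.8 and 14.2 in *atl9*, a smaller but tight difference of -0.58 (SE 0.10, adjusted p = 0.0029). In mock COB was slightly higher in *atl9* (0.14), and the difference between treatments passed at -0.72 (adjusted p = 0.044). GH9C2 (-0.98), GH9B7 (-0.83) and the glucan synthases of xyloglucan CSLC5 (-0.76, adjusted p = 0.033, and 0.054 to 0.099 without Col-0 chitin replicate 1, 3 or 4 or *atl9* chitin replicate 1, 3 or 4) and CSLC6 (-0.46, adjusted p = 0.022, and 0.051 to 0.068 without Col-0 chitin replicate 1, 3 or 4 or *atl9* chitin replicate 1 or 4) were the others. The list's median was -0.31 on scan day 4 and -0.86 on the earlier days. Without *atl9* chitin replicate 2 the list had 10 lower members in place of 6, and without any other array between 4 and 6.

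Expansins and xyloglucan endotransglucosylases loosen and rejoin the wall as cells grow. Of 23 tested, 4 were lower and none higher (median -0.39, and 0.06 in mock), which was 17.4% called, against 12.2% of all probe sets. EXPA8, an expansin, was at 5.29, 3.23, 5.11 and 3.54 in Col-0 and at 0.843, 2.45, 1.25 and 1.3 in *atl9*, where replicate 2 came closest to Col-0, and differed by -1.63 (SE 0.31, adjusted p = 0.0046). XTH16, which the study had listed, had 3.31, 2.9, 3.01 and 3.57 in Col-0 and 1.21, 1.53, 1.25 and 2.08 in *atl9*, without overlap (-1.10 (SE 0.24, adjusted p = 0.009)). XTH32 (-0.83) and XTH33 (-0.83, adjusted p = 0.029, and 0.055 to 0.087 without Col-0 chitin replicate 2, 3 or 4 or *atl9* chitin replicate 1 or 3) were the other 2, and XTH33 did not pass with scan day as a block. The list's median was -0.08 on scan day 4 and -0.65 on the earlier days, and -0.24 without *atl9* chitin replicate 1. The list had 7 lower members in place of 4 when *atl9* chitin replicate 2 was left out. The TRICHOME BIREFRINGENCE family, enzymes that acetylate wall polysaccharides, was grouped after its values had been seen. It had 5 of 20 members lower, among them TBL34 (-1.44 (SE 0.32, adjusted p = 0.012)) and TBL45 (-1.0 (SE 0.21, adjusted p = 0.0089)), and TBL26 higher (1.29 (SE 0.32, adjusted p = 0.018, and 0.051 to 0.058 without Col-0 chitin replicate 4 or *atl9* chitin replicate 3)). When scan day was blocked, 3 were lower and none higher, and without Col-0 chitin replicate 1 or 4 or *atl9* chitin replicate 3 or 4 the lower members numbered 3. SKU5, a glycoprotein of the growing root, differed by -0.80 (SE 0.17, adjusted p = 0.0084) and was also picked after its value was seen.

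Pectin enzymes that the study had described on these samples were lower as well. AT5G48900, a pectate lyase, measured 5.41, 6.46, 7.43 and 5.88 in Col-0 and 1.69, 2.43, 2.09 and 2.52 in *atl9*, apart by -1.53 (SE 0.19, adjusted p = 0.00043). The pectate lyase AT1G04680 differed by -1.05 (SE 0.15, adjusted p = 0.0011) and AT2G22510, a proline-rich wall protein, by -0.98 (SE 0.20, adjusted p = 0.0065). On the same list, AT5G12940, a leucine-rich repeat protein (-1.47 (SE 0.29, adjusted p = 0.0055)), AT1G44830, a transcription factor (-1.11 (SE 0.15, adjusted p = 0.00051)), and AT1G29670, a lipase-like protein (-0.85 (SE 0.15, adjusted p = 0.0033)), were lower. A pectin methylesterase inhibitor, AT1G70720, was higher (2.06 (SE 0.54, adjusted p = 0.022, and 0.066 without Col-0 chitin replicate 3 or *atl9* chitin replicate 3)), with both lines below the array median. The pectin list does not hold these loci, and its 3 tested members did not pass, with a median of -0.35. ATPMEPCRD, a pectin methylesterase outside the list, was picked after its value was seen. It was lower (-1.71 (SE 0.42, adjusted p = 0.018)), with overlapping arrays, and by -1.21 in mock, which did not pass. After chitin it did not pass with scan day as a block (adjusted p = 0.061). Nor did it without Col-0 chitin replicate 4 or *atl9* chitin replicate 1, 3 or 4 (adjusted p = 0.0503 to 0.056).

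Secreted peptides of defence went both ways. Of 11 tested, 3 were higher (THI2.1, PDF1.2 and PDF1.2b) and 4 lower, with a median of -0.16. That median was -0.63 on scan day 4, 0.32 on the earlier days and 0.04 without Col-0 chitin replicate 1, so that it has no settled sign. With scan day as a block 2 members passed as higher and 3 as lower. The 4 lower ones of the main fit were all defensins, small cysteine-rich peptides. LCR68 measured 24.5, 26.5, 23.1 and 26.5 in Col-0 and 6.14, 15.9, 10.7 and 6.92 in *atl9*, without overlap (-1.45 (SE 0.25, adjusted p = 0.0026)). PDF2.5 was at 2.86, 3.72, 3.92 and 4.1 in Col-0 and at 1.46, 1.64, 1.66 and 1.02 in *atl9*, again with all of *atl9* below all of Col-0 (-1.35 (SE 0.24, adjusted p = 0.0032)). LCR69 differed by -0.63 (SE 0.11, adjusted p = 0.0033) and LCR67, also known as PDF1.1, by -1.24 (SE 0.36, adjusted p = 0.035, and 0.055 to 0.11 without Col-0 chitin replicate 1, 3 or 4 or *atl9* chitin replicate 1, 3 or 4). In mock the differences of LCR68, PDF2.5 and LCR69 were -0.30, -0.39 and -0.31, none past the threshold. The study had described PDF2.5 on these same samples, so its direction is not independent evidence. The chitinases and the osmotin of the list, ChiC (-0.45), CHI (-0.16) and OSM34 (0.16), did not pass.

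Of 6 tested members of the list of class III peroxidases, enzymes that use hydrogen peroxide in the wall, 2 were lower. The list does not hold every such gene. AT5G64120 (peroxidase 71), also on the study's own list, was at 55.3, 46.1, 42.9 and 59.3 in Col-0 and at 27.9, 23.8, 22.7 and 24.8 in *atl9* after chitin, from 17.5 ± 3.51 and 18.1 ± 1.51 in mock (SD, n = 4 each). The 2 lines were apart by -1.03 (SE 0.14, adjusted p = 0.0008) after chitin, and the difference between treatments passed at -1.09 (adjusted p = 0.034). AT5G66390 (peroxidase 72) differed by -0.99 (SE 0.24, adjusted p = 0.015). AT5G64100, a peroxidase outside the list, also passed as lower in the main fit. It did not pass without Col-0 chitin replicate 1, 2, 3 or 4 or *atl9* chitin replicate 1, 3 or 4. Its differences there were -0.94 to -1.06 (adjusted p = 0.064 to 0.097). GSTU20, which joins glutathione to toxic compounds, measured 5.46, 4.57, 9.41 and 6.39 in Col-0 and 2.05, 3.43, 2.0 and 2.11 in *atl9* (-1.42 (SE 0.28, adjusted p = 0.0058)), and was the 1 member lower of 13 glutathione S-transferases. Of that list 7.69% was called, against 12.2% of all probe sets.

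The lower genes with the widest differences were mostly loci named by code. AT5G03350 measured 20.1, 29.9, 26 and 34.9 in Col-0 and 7.49, 2.45, 3.15 and 7.03 in *atl9* after chitin, against 4.31 ± 0.857 and 7.29 ± 4.44 in mock (SD, n = 4 each). The difference after chitin was -2.60 (SE 0.43, adjusted p = 0.0019), that in mock 0.55, and the difference between treatments -3.14 (adjusted p = 0.04). AT4G32460, at 18.9, 17.1, 23.2 and 23.6 in Col-0 and 4.35, 6.94, 6.95 and 7.69 in *atl9*, was also apart between the lines (-1.69 (SE 0.19, adjusted p = 0.00021)), with no difference in mock (-0.01). AT3G54400 had the smallest adjusted p among probe sets that the annotation gives 1 gene, with 20.6, 20.6, 22.8 and 22.3 in Col-0 and 7.26, 7.3, 7.33 and 10.3 in *atl9* (-1.44 (SE 0.13, adjusted p = 5.4e-05)). AT5G59680 (-3.31, adjusted p = 0.021, and 0.054 to 0.062 without Col-0 chitin replicate 4 or *atl9* chitin replicate 1 or 4), AT1G14220 (-2.12), AT4G18970 (-2.11), AT3G51350 (-1.97), AT2G30670 (-1.86), AT1G12080 (-1.84), AT3G18450 (-1.67, adjusted p = 0.039, and 0.062 to 0.099 without Col-0 chitin replicate 1, 2, 3 or 4 or *atl9* chitin replicate 1, 3 or 4) and AT1G56680 (-1.83) completed the largest lower differences. Among those above the array median in both lines were also AT1G44050 (-1.66), AT5G55450 (-1.61), AT3G27270 (-1.59) and AT3G05730 (-1.52).

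None of 6 tested WRKY transcription factors passed (median 0.02), and none of 5 receptors and receptor-like kinases (median 0.05) or of 4 salicylic acid and immune regulators (median -0.01). With 12.2% of all probe sets past the threshold, few calls would be found in lists of these sizes, and nothing particular to them is read from the counts. WRKY53, an early defence regulator, had means of 4.03 ± 0.816 and 4.41 ± 0.943 array medians in mock and of 41.7 ± 9.71 and 48 ± 2.96 after chitin in Col-0 and *atl9* (SD, n = 4 each). The difference after chitin was 0.23 (SE 0.19, adjusted p = 0.46), and that of WRKY22 was 0.22 (SE 0.21, adjusted p = 0.51). For EFR, the receptor of bacterial elongation factor Tu, it was 0.05 (SE 0.18, adjusted p = 0.9), for BIK1, a kinase of immune receptor complexes, 0.22 (SE 0.12, adjusted p = 0.27), for SAG101, a partner of EDS1, -0.06 (SE 0.16, adjusted p = 0.84), for SGT1A, a co-chaperone, 0.05 (SE 0.16, adjusted p = 0.88) and for EIN3, the ethylene transcription factor, 0.14 (SE 0.10, adjusted p = 0.41). Of 15 U-box and RING ubiquitin ligases 1 was lower, BRH1 (-0.92 (SE 0.25, adjusted p = 0.026, and 0.057 to 0.079 without Col-0 chitin replicate 1, 3 or 4 or *atl9* chitin replicate 1 or 3), with overlapping arrays), while the U-box ligases PUB22 (0.47 (SE 0.21, adjusted p = 0.15)) and PUB23 (0.35 (SE 0.17, adjusted p = 0.19)), which restrain immune signalling, did not pass. These p above the threshold leave the sizes within their standard errors open and do not show equal levels.

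Of 16 tested genes of calcium signalling 3 were higher, CML38, CML37 and CML23, all calmodulin-like calcium sensors, and GLR1.4, a glutamate receptor-like channel, was lower (-0.87, adjusted p = 0.038, and 0.069 to 0.088 without Col-0 chitin replicate 2, 3 or 4 or *atl9* chitin replicate 2, 3 or 4). This was 25% called, against 12.2% of all probe sets. With scan day as a block 2 genes of the list were higher and none lower, so GLR1.4 did not pass. CML38 measured 3.76, 6.51, 6.56 and 4.73 in Col-0 and 12, 15.6, 14.8 and 12.3 in *atl9*, apart by 1.37 (SE 0.37, adjusted p = 0.027, and 0.064 to 0.072 without Col-0 chitin replicate 1 or 4 or *atl9* chitin replicate 3). CML37 was at 18.5, 12.6, 15.2 and 13 in Col-0 and at 20.01, 26.7, 23.9 and 28.6 in *atl9*, against 0.813 ± 0.221 and 0.721 ± 0.187 in mock (0.75 (SE 0.21, adjusted p = 0.03, and 0.054 to 0.09 without Col-0 chitin replicate 2, 3 or 4 or *atl9* chitin replicate 2, 3 or 4)). CML23 differed by 0.79 (SE 0.19, adjusted p = 0.015) and passed whichever array was left out. Of the loci that the study describes as like disease resistance proteins, 2 were higher, AT1G66090 with 19.7, 21.5, 23.7 and 19.3 in Col-0 and 27.5, 33.9, 29.7 and 29.6 in *atl9* (0.52 (SE 0.14, adjusted p = 0.024, and 0.051 to 0.076 without Col-0 chitin replicate 1 or 4 or *atl9* chitin replicate 3)) and AT1G72950 (0.88 (SE 0.25, adjusted p = 0.034, and 0.058 to 0.084 without Col-0 chitin replicate 2, 3 or 4 or *atl9* chitin replicate 1, 3 or 4)), and AT1G72920 did not pass (0.50 (SE 0.17, adjusted p = 0.07)). For AT1G66090 the mock difference was of like size (0.46) and did not pass. The study described such loci on these same samples, so their direction is not independent evidence.

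In the list of the endoplasmic reticulum, where secreted proteins fold, 3 of 13 tested genes were lower and none higher (median -0.13). This was 23.1% called, against 12.2% of all probe sets. CRT1b, a calreticulin that holds glycoproteins until folded, measured 26.3, 24.7, 23.7 and 27.4 in Col-0 and 12, 17.5, 13.7 and 13.3 in *atl9*, without overlap (-0.87 (SE 0.13, adjusted p = 0.0011)). ATERDJ3B, a cochaperone of the same compartment, differed by -0.64 (SE 0.13, adjusted p = 0.008) and DER1, which takes part in the removal of misfolded proteins, by -0.45 (SE 0.11, adjusted p = 0.015). BZIP60, a stress transcription factor of the compartment, stood at 65.6 ± 12.9 in Col-0 and 62.3 ± 8.97 in *atl9* after chitin (SD, n = 4 each) and did not pass (-0.07 (SE 0.17, adjusted p = 0.84)).

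Of 8 nuclear genes of light harvesting, photosystems and Rubisco 1 was lower, PSBY, a small photosystem II subunit (-0.53 (SE 0.15, adjusted p = 0.034, and 0.067 to 0.11 without Col-0 chitin replicate 3 or 4 or *atl9* chitin replicate 2 or 3)), and 7 of the 8 differences were below 0 (median -0.45, 0.18 in mock). The 12.5% called in this list was near the 12.2% of all probe sets. The summed signals of its 8 genes were 261 to 331 in Col-0 and 159 to 275 in *atl9* after chitin. On scan day 4 their median was -0.68, and on the earlier days -0.17. PSBY did not pass with the values as deposited or with quantile normalization. None of 62 chloroplast-encoded genes, also grouped after their values had been seen, passed. Their median was 0.34, but 0.68 on scan day 4 and -0.04 on the earlier days. It was -0.31 without Col-0 chitin replicate 1, -0.06 without *atl9* chitin replicate 1 and 0.83 without Col-0 chitin replicate 2, so that it has no settled sign. Of 19 probe sets of the mitochondrial genome, grouped after their values had been seen, 5 were higher and none lower, with a median of 0.76 (0.06 in mock) and summed signals of 13.2 to 19.8 in Col-0 and 18.6 to 28.9 in *atl9*. They were nad4L, nad9 and 2 probe sets of nad5, subunits of complex I, and cox2, a subunit of complex IV. nad4L was at 0.50, 0.381, 0.485 and 0.277 in Col-0 and at 0.725, 0.83, 1.12 and 1.02 in *atl9* (1.19 (SE 0.24, adjusted p = 0.0064)), all without overlap and near or below the array median. Without Col-0 chitin replicate 4 the number of higher mitochondrial probe sets was 1 in place of 5, leaving out *atl9* chitin replicate 4 gave 2, and 3 were found without Col-0 mock replicate 1, Col-0 chitin replicate 1 or 3, *atl9* mock replicate 2 or 4 or *atl9* chitin replicate 1.

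**Figure D4:**
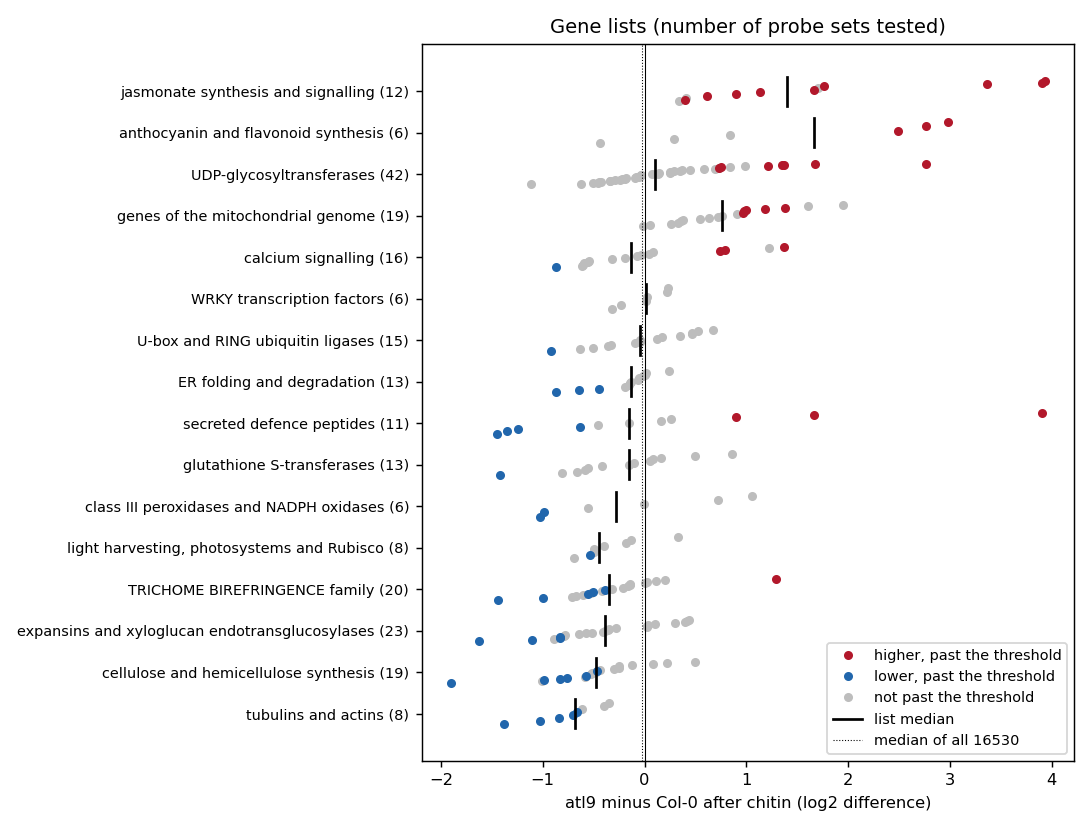
Log2 difference between *atl9* and Col-0 after chitin (x axis) for each tested member (points) of 16 gene lists (y axis, number tested in parentheses), coloured by the call at an adjusted p of 0.05, with each list's median as a bar and the median of all 16530 probe sets as a dotted line. The jasmonate list has all 12 members above 0 and the tubulin and actin list all 8 below 0.

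The remaining lists held 1 or 2 calls in a direction. With 12.2% of all probe sets past the threshold, nothing particular to them is read from these counts. Of 7 auxin genes GH3.17, which conjugates auxin to glutamate, was higher (1.06 (SE 0.27, adjusted p = 0.02, and 0.06 to 0.063 without Col-0 chitin replicate 3 or 4 or *atl9* chitin replicate 4)) and GH3.3, of the same enzyme family, lower (-1.25 (SE 0.34, adjusted p = 0.028, and 0.05 to 0.086 without Col-0 chitin replicate 1, 3 or 4 or *atl9* chitin replicate 1, 3 or 4)). Of 7 genes of gibberellin and brassinosteroid GID1A, a gibberellin receptor, was higher (0.70 (SE 0.20, adjusted p = 0.031, and 0.055 to 0.098 without Col-0 chitin replicate 2, 3 or 4 or *atl9* chitin replicate 1 or 4)) and BRH1 lower. GID1A did not pass with scan day as a block. Of 12 cytochrome P450 enzymes CYP71B26 was higher (0.62 (SE 0.12, adjusted p = 0.0054)), and of 5 basic helix-loop-helix factors MYC3. Of 11 genes of nitrogen, sulphur and phosphate transport and use GTR1 and GTR2, of the same transporter family as nitrate carriers, were higher and APS4, an ATP sulfurylase, lower (-0.76 (SE 0.20, adjusted p = 0.022, and 0.06 to 0.069 without Col-0 chitin replicate 1 or 4 or *atl9* chitin replicate 1)). Of 3 lipid genes AT4G13840 (ECERIFERUM 26, of wax synthesis) was lower (-0.57 (SE 0.14, adjusted p = 0.017, and 0.053 without *atl9* chitin replicate 3)), and of 12 genes listed as markers of sugar starvation and darkness SWEET11, a sucrose exporter, was lower (-0.74 (SE 0.19, adjusted p = 0.022, and 0.059 to 0.062 without Col-0 chitin replicate 4 or *atl9* chitin replicate 1)).

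Where the difference between the lines was itself compared between treatments, 75 probe sets (0.454%) passed, 28 with a positive and 47 with a negative interaction, and all 75 were also among the 2017. Of the 191 probe sets examined by name 19 passed. The positive ones with a symbol were scpl30 and UGT73B5, and the negative ones TUB1 and COB. For JRG21 the interaction was 3.01 (adjusted p = 0.1), for PDF1.2 1.48 (adjusted p = 0.11), for DFR 2.48 (adjusted p = 0.13) and for THI2.1 2.51 (adjusted p = 0.17), so that their differences after chitin are not shown to differ from those in mock.

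The number of calls depended on single arrays. In place of 2017 it was 983 when Col-0 chitin replicate 4 was left out and 1342 when Col-0 chitin replicate 3 was. Leaving out *atl9* chitin replicate 1, 3 or 4 gave 1316, 1265 and 1299. Of the 852 higher probe sets 360, and of the 1165 lower ones 490, passed in all 16 fits that left out 1 array. With scan day as a block 1618 probe sets (9.79%) passed, and these included 542 of the 852 and 871 of the 1165. Within scan day 4, with 2 arrays per line and treatment, none passed in limma, while 3127 had an unadjusted p under 0.05, and within the earlier scan days 854 passed. The scaling shifted the balance of directions from 852 higher and 1165 lower to 1093 and 1042 with the values as deposited, and to 927 and 1054 with quantile normalization.

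**Figure D5:**
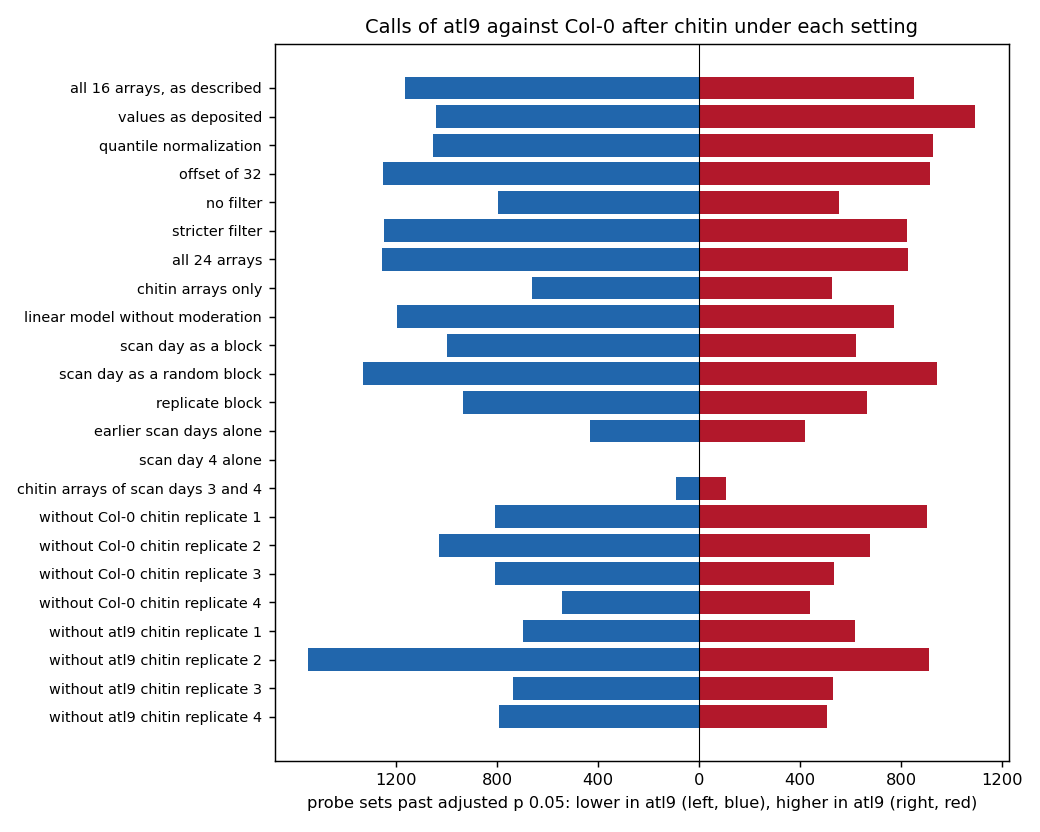
Number of probe sets past an adjusted p of 0.05 in limma (x axis), lower in *atl9* to the left and higher to the right, for 23 settings of the analysis (y axis). The count is 2017 as described, 0 on scan day 4 alone and 983 without Col-0 chitin replicate 4.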

How the data were processed

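Total RNA of whole seedlings was hybridised to 24 Affymetrix ATH1 arrays. The deposited values are linear signal intensities that the authors made with the Affymetrix GCOS 1.1 software at a target intensity of 500. No alignment or genome build is involved. Control probe sets (64 of 22810) were left out. Each signal was divided by the median of its array and log2-transformed with no offset. A rule kept 16530 probe sets, those with the highest mean over the 24 arrays. Of the probe sets, 13513 match 1 gene, 503 match several and 8730 are not listed in the annotation used here, so a gene without a probe set of its own is not analysed. Instrument settings deposited with the arrays gave the scan day, used as a batch under the names day 1 to day 4.

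The 16 arrays of Col-0 and *atl9* were fitted with 4 group means in limma 3.58.1 (R 4.3.3, lmFit and eBayes), with Benjamini-Hochberg adjustment over all 16530 probe sets and a threshold of 0.05. The line difference after chitin, the line difference in mock and their difference (the interaction) were read from that fit, whose steps were tested on simulated data. Nothing beyond the label of biological replicates says how separate the flasks were, so p-values measure the spread between these samples. The arrays' number limits the precision.

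Genes were named by a rule: the 15 largest differences each way among single-gene probe sets past the threshold whose arrays did not overlap and whose mean reached the array median in 1 line; the 10 largest each way above the array median in both lines; up to 4 members of smallest adjusted p in each list of at least 3 tested; the 10 smallest adjusted p; and loci named by the study. The members and lists were chosen with earlier results of these data known. Lists were corrected for wrong matches, and the mitochondrial, chloroplast and TRICHOME BIREFRINGENCE lists and 16 genes were added, after values had been seen. Sequences, and therefore promoter motifs, were not analysed here. Alternatives changed the scaling, offset, filter, arrays, moderation and blocks.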

Additional observations from a re-analysis of the deposited data

Results flagged for a closer look

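For 19 of the genes examined by name the difference between the lines after chitin differed from that in mock, tested as the interaction in limma. The negative interactions on the log2 scale were those of AT5G03350 (-3.14, adjusted p = 0.04), AT1G56680 (-2.26, adjusted p = 0.027), AT4G18970 (-1.92, adjusted p = 0.044), AT4G32460 (-1.69, adjusted p = 0.02), AT3G54400 (-1.51, adjusted p = 0.0085), AT5G03120 (-1.39, adjusted p = 0.0085), TUB1 (-1.25, adjusted p = 0.019), AT1G09750 (-1.25, adjusted p = 0.014) and AT1G04680 (-1.20, adjusted p = 0.033). Smaller ones were those of AT1G29670 (-1.13, adjusted p = 0.04), AT4G25260 (-1.12, adjusted p = 0.033), AT3G50560 (-1.12, adjusted p = 0.033), AT5G64120 (-1.09, adjusted p = 0.034), AT1G44830 (-1.0, adjusted p = 0.048) and COB (-0.72, adjusted p = 0.044). Positive ones were those of scpl30 (4.73, adjusted p = 0.042), AT4G33150 (1.10, adjusted p = 0.048), UGT73B5 (0.86, adjusted p = 0.038) and AT5G25770 (0.66, adjusted p = 0.048).

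In 7 of 160 groups of 4 arrays (40 genes in 4 groups) 1 array stood apart from the other 3 by Dixon's ratio of gap to range, whose critical value is 0.829 and which chance exceeds in about 1 of 20 groups. In *atl9* after chitin these were replicate 4 for AT3G54400 (ratio 0.973, signal 10.3 against 7.26 to 7.33 array medians), replicate 2 for GSTU20 (ratio 0.902, 3.43 against 2.00 to 2.11) and replicate 1 for scpl30 (ratio 0.909, 4.22 against 10.5 to 11.5). In Col-0 after chitin it was replicate 1 for JAL22 (ratio 0.841, 19.2 against 10.3 to 11.4) and for JRG21 (ratio 0.895, 11.4 against 1.75 to 2.13). In mock it was *atl9* replicate 4 for XTH16 (ratio 0.918, 0.629 against 1.40 to 1.5) and Col-0 replicate 1 for THI2.1 (ratio 0.898, 0.214 against 0.610 to 0.687).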

How the results depend on the processing

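Of 2017 probe sets past the threshold after chitin (852 higher, 1165 lower), 1188 (527 higher, 661 lower) were found with the chitin arrays fitted alone, 854 (420, 434) within the earlier scan days, 0 (0, 0) within scan day 4, and 528 (283, 245) with a 2-fold minimum. The chitin arrays of scan days 3 and 4, an alternative chosen after seeing the data, gave 197 (104, 93). Without the filter 555 were higher. Leaving out 1 array gave 983 to 2459 in all, 438 to 910 higher and 545 to 1549 lower. The lowest counts were without Col-0 chitin replicate 4. The higher count was 528 and 507 without *atl9* chitin replicates 3 and 4 and 535 without Col-0 chitin replicate 3, and the lower count was 699 and 737 without *atl9* chitin replicates 1 and 3. The mock count of 1 became 2 with all 24 arrays, 0 on scan day 4, 2 on the earlier days, and 1 to 3 without 1 array, with 3 without *atl9* mock replicate 1 or 4. The interaction count of 75 became 139 with the offset of 32, 11 without the filter, 184 with the stricter filter, 37 with scan day as a block, 132 with it as a random block, 24 with the replicate block, 0 and 0 on scan day 4 and on the earlier days, and 6 to 179 without 1 array. It was 6, 9, 28 and 179 without Col-0 chitin replicates 4, 3, 2 and 1, 141, 13 and 43 without *atl9* chitin replicates 2, 3 and 4, 21, 29 and 22 without *atl9* mock replicates 1, 2 and 4, and 12 without Col-0 mock replicate 3. The causes were not tested.

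With the replicate number as a block 1603 probe sets passed after chitin (666 higher, 937 lower). The numbers do not pair the samples: same-numbered arrays of the chitin groups correlated at -0.275 to 0.023 in their deviations from the group means, and 4 of 16 arrays were closest to their own number. Of the 191 probe sets examined by name, 120 passed, 85 of them in every fit without 1 array. A change of sign was counted only where the main fit or the alternative passed. None was found in the 30 alternatives that tested all 191 or, for the 138 that it kept, with the stricter filter. Many of these could not change a sign, because they leave each log2 difference after chitin as it was. They are the 2-fold minimum, both changes of filter, the fit without moderation and the replicate block. The chitin arrays alone, all 24 arrays and the fits without a mock array are others. Only the remaining alternatives could have shown a reversal. Signals far below the array median carry the widest log2 differences, and 4 arrays per group bound how precise any of them is.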
